A study of Mus musculus with 12 samples.

Results

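The Hoxc cluster genes Hoxc4, Hoxc5, Hoxc6, Hoxc8, Hoxc9, Hoxc10 and Hoxc11 were followed across 12 RNA-seq libraries of mouse satellite cells, the muscle stem cells that repair injured fibres. These 7 genes are 7 of the 22310 gene symbols in the count files, and were chosen by symbol and selected on their total count, with a minimum of 10 over the 12 libraries. All 7 passed that minimum, the lowest being Hoxc8 with 421 counts in total and the highest Hoxc10 with 2388. The cluster's remaining members in the files, Hoxc12 and Hoxc13, were not among the named genes and held 11 and 46 counts in total. The members were chosen with the lower levels of Hoxc11, Hoxc8 and Hoxc6 in old knockout cells already known.

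The libraries form 4 groups of 3: C57BL/6 wild type and Hoxa9 knock-out, each from young mice of 3 to 4 months and old mice of 22 to 28 months. All groups share the injury: hindlimb muscle received 50 µl of 1.2% barium chloride (BaCl2), which kills muscle fibres and activates satellite cells, over some 20 sites, and the cells were taken 3 days later. The labels do not say which part of Hoxa9 was removed, whether the loss was in all tissues, or whether a library came from a single animal. P-values therefore measure the spread between these libraries, which may be technical.

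Hox genes encode transcription factors that bind DNA through a homeodomain and give embryonic cells their position along the body axis. Each cluster is laid out in the order of expression along that axis. In the Hoxc cluster Hoxc4, Hoxc5 and Hoxc6 act furthest forward, Hoxc8 and Hoxc9 in the trunk, and Hoxc10 and Hoxc11 at the level of the hindlimb. Adult cells of the limb keep part of this pattern. Polycomb proteins hold the clusters silent and Trithorax proteins keep them active.

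The homeobox, the stretch of the coding sequence that encodes the homeodomain, is where Hox genes are most alike. It is shown here for the 4 genes that the results turn on. The lines give bases 124 to 168 of the 180 bases of each homeobox, from transcript sequences of GENCODE M21 on the plus strand of chromosome 15 (GRCm38), with capitals where a base differs from Hoxc8.
Hoxc6: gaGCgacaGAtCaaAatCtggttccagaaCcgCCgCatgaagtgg
Hoxc8: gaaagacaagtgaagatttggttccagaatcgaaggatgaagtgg
Hoxc10: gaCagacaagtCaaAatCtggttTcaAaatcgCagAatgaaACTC
Hoxc11: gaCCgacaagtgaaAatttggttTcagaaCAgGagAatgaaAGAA
Hoxc6 differs from Hoxc8 at 11 of these bases, and Hoxc10 and Hoxc11 at 12 each. Over the whole homeobox, identity between the 7 members ran from 52.2% (Hoxc4 with Hoxc11) to 77.8% (Hoxc5 with Hoxc6). Stretches of 50 bases shared with another gene made up 0% of the Hoxc4, Hoxc5, Hoxc6 and Hoxc11 transcripts, 0.77% of Hoxc8 and 1.89% of Hoxc9, which shares some with Hoxb9. They made up 6.4% of Hoxc10, which shares sequence with a transcript of Hoxc5. The sources used here do not give whether the authors counted by strand, so reads of antisense transcripts in the cluster, if any, cannot be told apart from those of its genes.

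Hoxc8 also carries matches to a microRNA of its own cluster. Mir196a-2 lies between Hoxc10 and Hoxc9, and its product miR-196a is known to repress Hox genes. The mature sequence from RefSeq (GRCm38.p6) is shown with its seed, bases 2 to 8, in capitals. Below it stand both stretches of the Hoxc8 3' UTR that hold the complement of the seed, also in capitals. The position given after the stop codon is that of the first capital.
miR-196a-5p: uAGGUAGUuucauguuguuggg
Hoxc8 at 135 bases after the stop codon: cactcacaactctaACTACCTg
Hoxc8 at 892 bases after the stop codon: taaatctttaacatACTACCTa
Hoxc8 was the only one of the 7 members whose transcript held the 7 letters ACTACCT, and 12 of the 22 bases of the microRNA were complementary at each match. Across 21849 coding genes 15.9% held at least 1 match in their longest transcript, and 2.29% held 2 or more. Among the 7360 with a transcript of 1500 to 3000 bases these shares were 12.3% and 0.938%. The Hoxc8 transcript has 1868 bases. A match is a description of the letters and not evidence of a working site, and the microRNA itself was not measured in the count files. The promoter table held only Hoxc4 of the 7 members, so promoters were not compared.

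Reads counted in genes numbered 4193433 to 20337015 per library, and the counts of all 7 members together ran from 133 (old knockout replicate 3) to 1431 (young wild-type replicate 1). Levels below are CPM, the counts of a gene relative to the library size, scaled with trimmed-mean factors. Satellite cell and myoblast markers summed to 9435 to 10930 CPM in the young wild-type libraries and 8417 to 9253 CPM in the old ones. In knockout they summed to 7220 to 10320 CPM in young and 8190 to 8992 CPM in old mice, with all 13 markers above the filter on low counts. Old knockout replicates 2 and 3 carried Y-linked reads at 238 and 231 CPM, against 9.1 CPM or less in the other 10 libraries. Such a level marks RNA of male mice, the labels give no sex, and in old mice the sex of these libraries is thus not balanced between genotypes. Old wild-type replicate 2 and old knockout replicate 3 had the most reads outside genes, 57.1% and 70.8% of unique reads. Across genes, Spearman's rho of level on GC content was positive in every wild-type library (0.225 to 0.489) and negative in every knockout library (-0.534 to -0.134). Reads counted for Lars2, a mitochondrial tRNA synthetase gene, made up 0.484% to 25.0% of a knockout library and 0.0258% to 0.11% of a wild-type library. Hoxa9, the targeted gene, stood at 7.96, 11.4 and 11.5 CPM in the young wild-type libraries and at 14.7, 15.7 and 22.5 CPM in the old ones. In knockout it stood at 7.21, 5.52 and 6.46 CPM in young and 6.46, 4.55 and 6.39 CPM in old mice. Reads of Hoxa9 thus remained in all 6 knockout libraries, and the knockout ranges lay below the wild-type ranges at both ages.

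Per kilobase of transcript, Hoxc10 was the most abundant member in every group. In young wild type it stood at 13.6 ± 2.30 CPM per kb (SD, n = 3). Hoxc11 followed at 6.46 ± 0.813, Hoxc6 at 5.97 ± 1.09, Hoxc9 at 4.66 ± 0.489, Hoxc4 at 2.19 ± 0.374, Hoxc8 at 1.42 ± 0.186 and Hoxc5 at 1.07 ± 0.447 CPM per kb. In that order the library ranges of Hoxc11 and Hoxc6 overlapped, as did those of Hoxc8 and Hoxc5, and the other neighbours did not overlap. The genes at the hindlimb end of the cluster thus held the highest levels, with Hoxc6 among them and Hoxc5 and Hoxc8 lowest. In old wild type Hoxc10 stood at 9.66 ± 1.41, Hoxc11 at 5.85 ± 0.444, Hoxc6 at 5.51 ± 1.16 and Hoxc9 at 5.22 ± 0.545 CPM per kb. Hoxc8 was at 2.71 ± 0.474 there, Hoxc4 at 2.23 ± 0.293 and Hoxc5 at 1.52 ± 0.381 CPM per kb, so that Hoxc8 ranked above Hoxc4, with overlapping ranges. In old knockout the order was Hoxc10 at 6.20 ± 0.756, Hoxc9 at 4.19 ± 0.739, Hoxc11 at 2.89 ± 0.687, Hoxc6 at 2.79 ± 0.239, Hoxc4 at 1.83 ± 0.357, Hoxc5 at 1.03 ± 0.320 and Hoxc8 at 0.963 ± 0.577 CPM per kb. There Hoxc9 stood second and Hoxc8 last, though Hoxc9 overlapped Hoxc11, Hoxc11 overlapped Hoxc6, and Hoxc5 overlapped Hoxc8. Hoxc9 was second in young knockout too, at 4.945 ± 1.44 CPM per kb after Hoxc10 at 7.20 ± 2.75. Hoxc6 at 3.83 ± 1.31 and Hoxc11 at 3.03 ± 0.476 CPM per kb came next. Hoxc8 at 1.69 ± 0.352 then ranked above Hoxc5 at 1.54 ± 0.628 and Hoxc4 at 1.44 ± 0.550 CPM per kb. Of these neighbours only Hoxc11 and Hoxc8 did not overlap. Hoxc12 and Hoxc13, the end of the cluster used furthest back, reached at most 0.243 and 1.09 CPM in any library and were under the filter for testing.

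**Figure D1:**
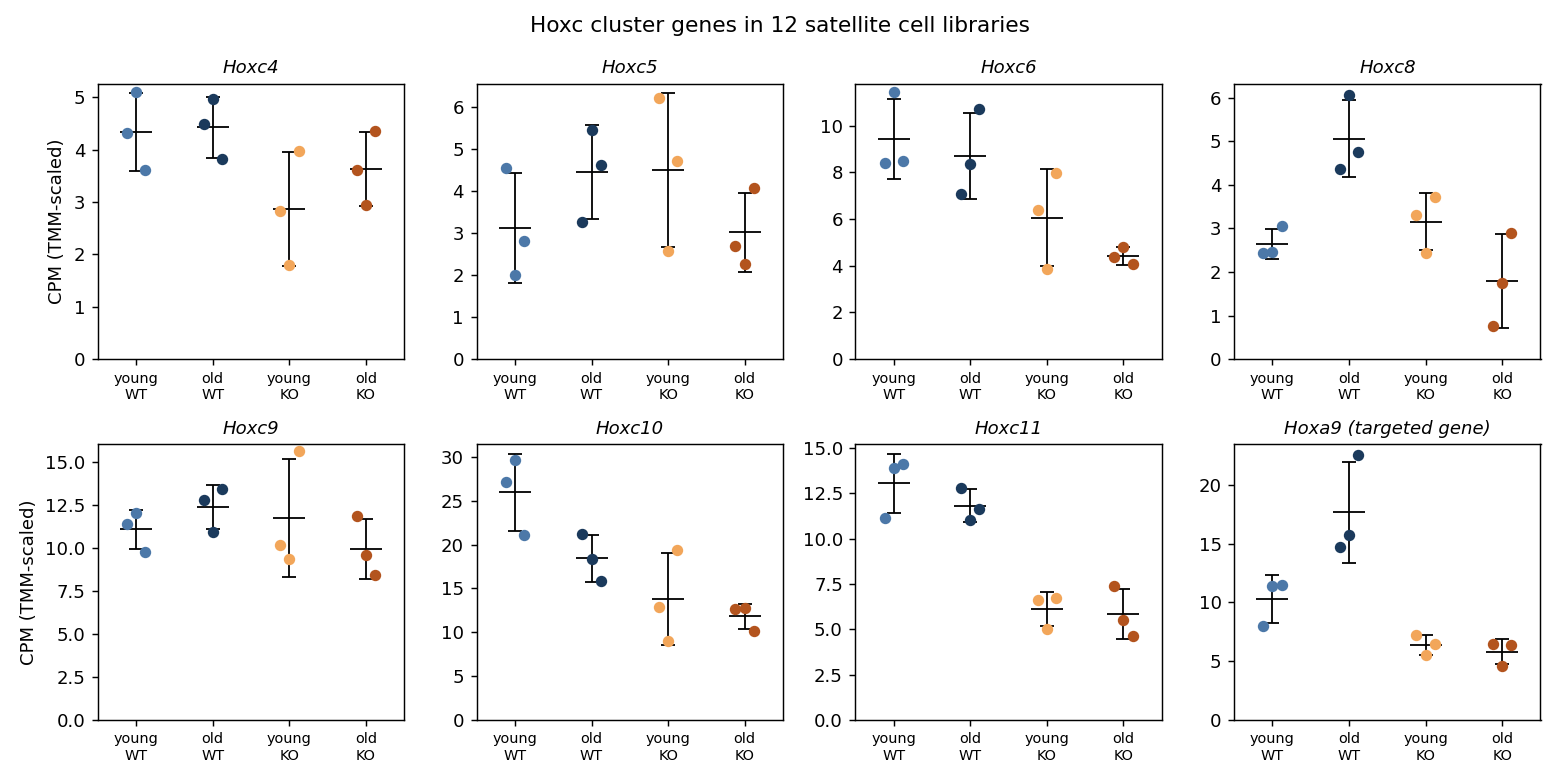
Level of each Hoxc gene and of Hoxa9 in CPM (y axis, from 0) in the 3 libraries of each group (points), with the group mean and SD (bars). Hoxc11 shows the widest gap between genotypes, 11.03 to 14.1 CPM in the wild-type libraries against 4.65 to 7.36 in the knockout libraries, and Hoxc8 is highest in old wild type and lowest in old knockout.

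In old mice the knockout was compared with wild type. Hoxc8, Hoxc11 and Hoxc6 were lower in old knockout, and no member was higher. Hoxc8, a trunk-level gene, stood at 4.37, 6.06 and 4.77 CPM in old wild type and at 0.751, 1.74 and 2.91 CPM in old knockout. Every old knockout library lay below every old wild-type library, on as few as 5, 26 and 10 Hoxc8 reads in old knockout. The log2 fold change was -1.57 ± 0.40 (SE), which passed the threshold (adjusted p = 0.0193, quasi-likelihood test of edgeR, over all 13540 tested genes). The call ended without old wild-type replicate 2 (adjusted p = 0.0658), old knockout replicate 1 (adjusted p = 0.0594), old knockout replicate 2 (adjusted p = 0.0538), or old wild-type replicate 2 and old knockout replicate 3 together (adjusted p = 0.0845). With old knockout replicate 1, the library with few Y-linked reads, as the only one of its group, the log2 fold change was -2.72 (adjusted p = 0.0517).

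Hoxc11, the member furthest toward the hindlimb end, stood at 12.8, 11.03 and 11.6 CPM in old wild type and at 7.36, 5.49 and 4.65 CPM in old knockout. The groups did not overlap. Its log2 fold change was -1.005 ± 0.22 (SE; adjusted p = 0.00961), and the call ended without old knockout replicate 3 (adjusted p = 0.0508). It also ended without both libraries with Y-linked reads (log2 fold change -0.68, adjusted p = 0.284) and without both with most reads outside genes (-0.93, adjusted p = 0.109). Hoxc6, which acts toward the front of the cluster's range, stood at 7.08, 8.35 and 10.7 CPM in old wild type and at 4.36, 4.82 and 4.07 CPM in old knockout. These ranges did not overlap either, and the log2 fold change was -0.96 ± 0.28 (SE; adjusted p = 0.0331). Leaving out any 1 of the 6 old libraries ended the Hoxc6 call, with adjusted p-values of 0.052 to 0.12, as did leaving out both Y-linked libraries (0.266) or both with most reads outside genes (0.194).

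Hoxc10, at the hindlimb end, stood at 21.2, 18.4 and 15.8 CPM in old wild type and at 12.6, 12.7 and 10.2 CPM in old knockout. The ranges did not overlap, yet the log2 fold change of -0.63 ± 0.24 (SE) did not pass the threshold (adjusted p = 0.0918). Hoxc5, Hoxc4 and Hoxc9 had log2 fold changes of -0.62, -0.31 and -0.31, with overlapping ranges and adjusted p-values of 0.32, 0.525 and 0.352. In all, 3 of 7 members were called lower, where 7.21% of all tested genes were, and 4 of 7 had every old knockout library below every old wild-type library, where 20.4% of all tested genes did. All 7 log2 fold changes were negative, with a median of -0.63, while the median over all tested genes was -0.01. In bulk samples fewer cells that express a gene and less RNA per cell cannot be told apart.

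Several lists of markers of other cell types also differed between these groups. Of all tested genes 9.52% were higher and 7.21% lower in old knockout. Of 12 tendon markers 9 were higher in old knockout (summed level 269 to 296 CPM in old wild type and 833 to 1935 in old knockout). Of 12 tested macrophage and monocyte markers 4 were lower (166 to 192 CPM against 21.1 to 97.9), and of 14 fibroblast markers 2 were higher (5882 to 7013 CPM against 7416 to 10760). Of 10 choroid plexus markers 9 were lower (147 to 3515 CPM against 43.9 to 70.6). Of the 13 satellite cell and myoblast markers 1 was higher and 2 were lower. Pericyte and neutrophil lists each had 3 members higher (of 10 and 8 tested) and the Schwann list 1 of 8, while 0 of 9 endothelial and 0 of 12 myofibre markers passed. The counts of the fibroblast, satellite cell and Schwann lists lay near the shares of all tested genes. Of all these markers only Hba-a1, an erythroid one, was at 0 throughout, and the part of these markers in the Hoxc differences was not tested.

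In young mice the knockout was likewise compared with wild type. Hoxc11 and Hoxc10, the genes at the hindlimb end, were lower in young knockout, and no member was higher. Hoxc11 stood at 11.2, 13.9 and 14.1 CPM in young wild type and at 6.63, 5.01 and 6.71 CPM in young knockout. The groups did not overlap, and the log2 fold change was -1.09 ± 0.22 (SE; adjusted p = 0.00407). With offsets for GC content and length, described below, it was -0.70 and did not pass (adjusted p = 0.0547). Hoxc10 stood at 27.2, 29.6 and 21.1 CPM in young wild type and at 12.8, 8.99 and 19.4 CPM in young knockout. Its highest knockout library, replicate 3, lay just below the lowest wild-type library, and the log2 fold change was -0.94 ± 0.24 (SE; adjusted p = 0.0154). The Hoxc10 call ended without young wild-type replicate 2 (adjusted p = 0.0647) or young knockout replicate 2 (adjusted p = 0.0833), where the log2 fold change was -0.65.

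Hoxc6 stood at 8.39, 11.4 and 8.50 CPM in young wild type and at 6.38, 3.85 and 7.95 CPM in young knockout. These ranges did not overlap, but the log2 fold change of -0.65 ± 0.28 (SE) did not pass (adjusted p = 0.107). Hoxc4 had a log2 fold change of -0.63 (adjusted p = 0.185), Hoxc5 of 0.50 (adjusted p = 0.399), Hoxc8 of 0.24 (adjusted p = 0.688) and Hoxc9 of 0.06 (adjusted p = 0.865). Thus 2 of 7 members were called lower, where 10% of all tested genes were, and 3 of 7 had non-overlapping lower ranges, where 19.6% of all tested genes did. The members' median was -0.63 and that of all tested genes -0.02, and with the offsets they were -0.33 and 0.04. Choroid plexus markers differed here too, 9 of 10 lower (1616 to 6115 CPM in young wild type and 21.6 to 51.4 in young knockout), as did 4 of 13 satellite cell and myoblast markers and 3 of 8 neutrophil and erythroid markers, also lower. Fibroblast markers had 2 higher and 2 lower of 14 (10420 to 12480 CPM in young wild type, 8343 to 8679 in young knockout) and tendon markers 1 higher and 1 lower of 12 (511 to 580 CPM, and 673 to 1255). Pericyte and myofibre markers had 1 lower each, of 10 and 12, and 0 of 12 macrophage, 0 of 9 endothelial and 0 of 8 Schwann markers passed. Of all tested genes 10.9% were higher and 10% lower, and the fibroblast, tendon, pericyte and myofibre counts lay near these shares. The part of these markers in the Hoxc differences was not tested.

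**Figure D2:**
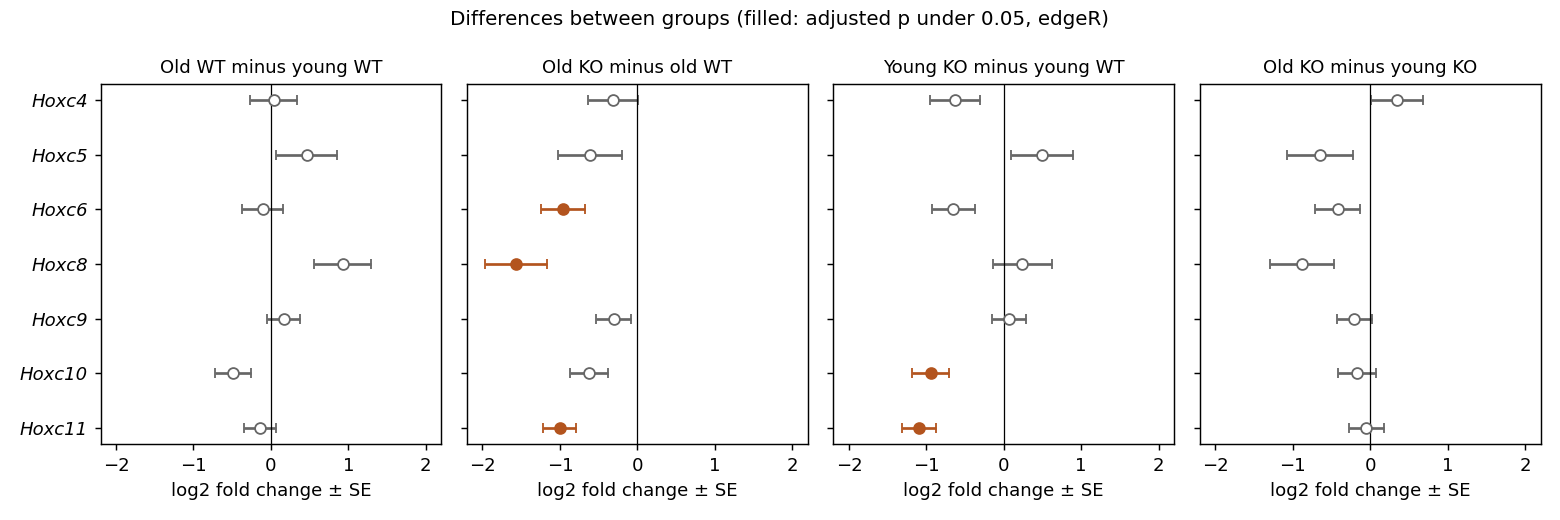
Log2 fold change (x axis) of each Hoxc gene in 4 comparisons between groups, with the SE as bars and filled points where the adjusted p was under 0.05. Hoxc6, Hoxc8 and Hoxc11 are filled for knockout in old mice, Hoxc10 and Hoxc11 for knockout in young mice, and no gene for age within either genotype. Panels that have a group in common share its libraries.

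Age within a genotype gave no called member. In old against young wild type 0 of 7 members passed in edgeR (1.06% of all tested genes did), 1 had an unadjusted p under 0.05, and the count was also 0 with DESeq2 and limma-voom. That gene was Hoxc8, at 2.43, 2.47 and 3.05 CPM in young and 4.37, 6.06 and 4.77 CPM in old wild type. Every old library lay above every young one, as in 13.1% of all tested genes in that direction, and the log2 fold change was 0.93 ± 0.37 (SE; adjusted p = 0.253). Hoxc10 had a log2 fold change of -0.49 ± 0.23 (SE; adjusted p = 0.368), with overlapping ranges. The remaining 5 members lay between -0.14 (Hoxc11) and 0.46 (Hoxc5). Hoxa9, the member of another cluster that the knockout targets, had a log2 fold change of 0.79 ± 0.23 (SE; adjusted p = 0.123). In old wild type 3 of 13 satellite cell and myoblast, 3 of 14 fibroblast and 1 of 10 pericyte markers were lower. No marker was higher, and no other list had a called marker. The 12 tested macrophage markers had a median log2 fold change of 2.14. Their whole list summed to 28.0 to 57.4 CPM in young and 166 to 192 CPM in old wild type. The part of the markers in these Hoxc values was not tested.

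In old against young knockout 0 of 7 members passed in edgeR (0.0148% of all tested genes did), 0 had an unadjusted p under 0.05, and DESeq2 and limma-voom also gave 0. Hoxc8 stood at 3.32, 2.44 and 3.73 CPM in young and 0.751, 1.74 and 2.91 CPM in old knockout, ranges that overlapped, with a log2 fold change of -0.88 ± 0.41 (SE; adjusted p = 0.517). Hoxc5 had -0.65 and Hoxc6 -0.42, and the other 4 members lay between -0.20 (Hoxc9) and 0.35 (Hoxc4). The difference between these age effects, tested as an interaction, passed for 0 of 7 members in edgeR (0.0148% of all tested genes passed), with 1 unadjusted p under 0.05 and 0 calls in DESeq2 and limma-voom. Hoxc8 had an interaction of -1.81 ± 0.55 (SE; adjusted p = 0.351 in edgeR). Hoxc5 had -1.11 ± 0.57 (SE; adjusted p = 0.565) and Hoxa9 -0.97 ± 0.35 (SE; adjusted p = 0.399). The age comparisons and the knockout comparisons share their libraries, so these Hoxc8 values are not independent of its lower level in old knockout.

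The make-up of the cluster's reads differed as well, described here as each gene's share of the reads counted for all 7 members, with no test. Hoxc9, a trunk-level gene, took 16.4%, 15.7% and 15.5% of them in young wild type and 19.4%, 16.8% and 20.7% in old wild type. Its share of a young knockout library was 21.1%, 27.5% and 25.2%, and that of an old one 27.4%, 24.2% and 21.8%. All 6 knockout libraries were above all 6 wild-type libraries, while the level of Hoxc9 in CPM overlapped between genotypes at both ages. Hoxc11 took 18.9 ± 3.24% of the reads in young and 18.1 ± 1.25% in old wild type (SD, n = 3). It took 13.1 ± 2.03% in young and 14.3 ± 2.52% in old knockout mice. Hoxc10 took 37.1 ± 3.14% in young wild type, and 28.2 ± 3.85%, 28.1 ± 2.73% and 29.2 ± 2.92% in old wild type, young knockout and old knockout. Every young wild-type library was thus above every library of the other 3 groups in its Hoxc10 share. Hoxc8 took 3.85 ± 0.865% in young wild type, 7.76 ± 1.38% in old wild type, 6.67 ± 0.605% in young knockout and 4.55 ± 2.89% in old knockout. The old knockout libraries were far apart in Hoxc8, at 1.74% (95% Clopper-Pearson interval 0.566% to 4.01%, replicate 1), 4.4% (2.89% to 6.38%, replicate 2) and 7.52% (3.66% to 13.4%, replicate 3). These intervals cover counting error only.

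**Figure D3:**
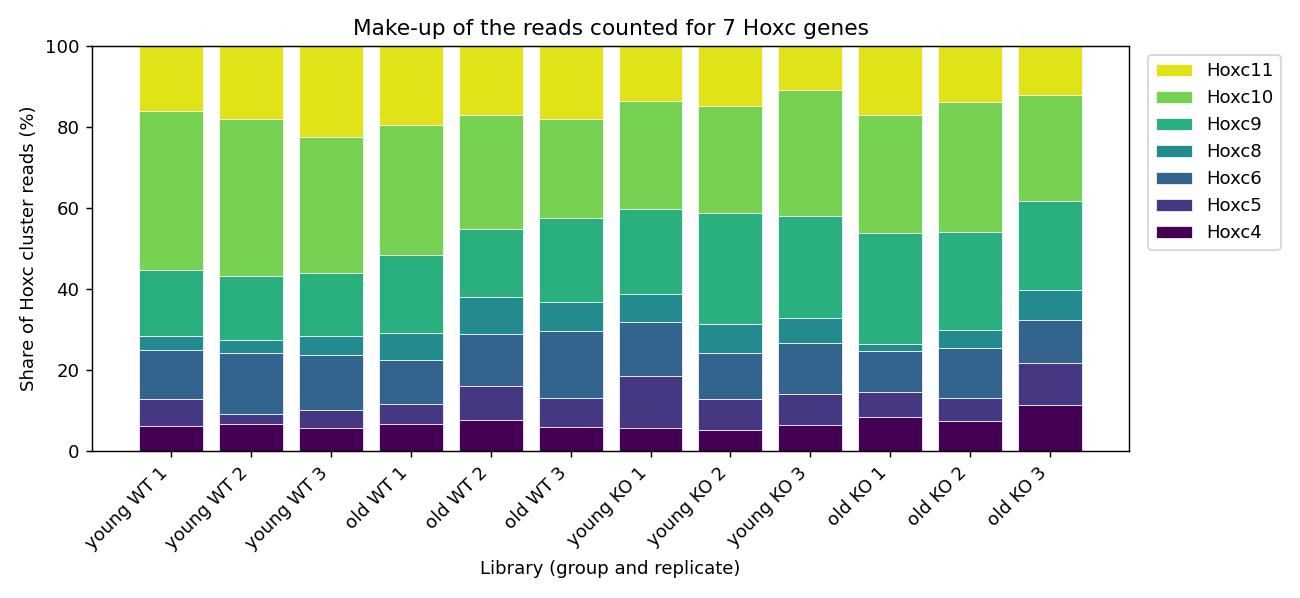
Share of the reads counted for the 7 Hoxc genes (y axis, percent) that each gene took in each library (bars, by group and replicate). The Hoxc9 band is wider in the 6 knockout libraries (21.1% to 27.5%) than in the 6 wild-type libraries (15.5% to 20.7%).

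The summed level of the 7 members was 69.6 ± 6.80 CPM for young wild-type libraries and 65.3 ± 0.602 CPM for old ones (SD, n = 3). It was 48.2 ± 14.05 CPM in young and 40.5 ± 2.45 CPM in old knockout mice. The young knockout libraries were spread widely, at 48.4, 34.0 and 62.1 CPM for replicates 1 to 3. Replicate 2, the lowest, had the steepest fall of level with GC content across genes (rho -0.534), and replicate 3, the highest, the shallowest (rho -0.134). In the other 3 groups the sums did not follow the order of rho: in old knockout replicate 1 had the highest sum (43.3 CPM) at a rho of -0.329, and replicate 2 had 39.5 CPM at -0.290. The GC content used for each member in the offsets, that of its longest transcript, ran from 50.5% to 55.6%, at percentiles 50.4 to 77.8 of the tested genes. With offsets for GC content and length, the log2 fold changes in old mice were -1.54 for Hoxc8 (adjusted p = 0.0329), -0.76 for Hoxc11 (adjusted p = 0.0352) and -0.83 for Hoxc6 (adjusted p = 0.0712), so that 2 members passed. In young mice they were -0.70 for Hoxc11 (adjusted p = 0.0547) and -0.79 for Hoxc10 (adjusted p = 0.0643), so that neither passed. Over all tested genes 2265 genes (16.7%) passed in old and 2831 (20.9%) in young mice, and 1310 and 986 passed with these offsets. The GC trend separates the genotypes completely, and the trend and the genotype cannot be told apart.

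**Figure D4:**
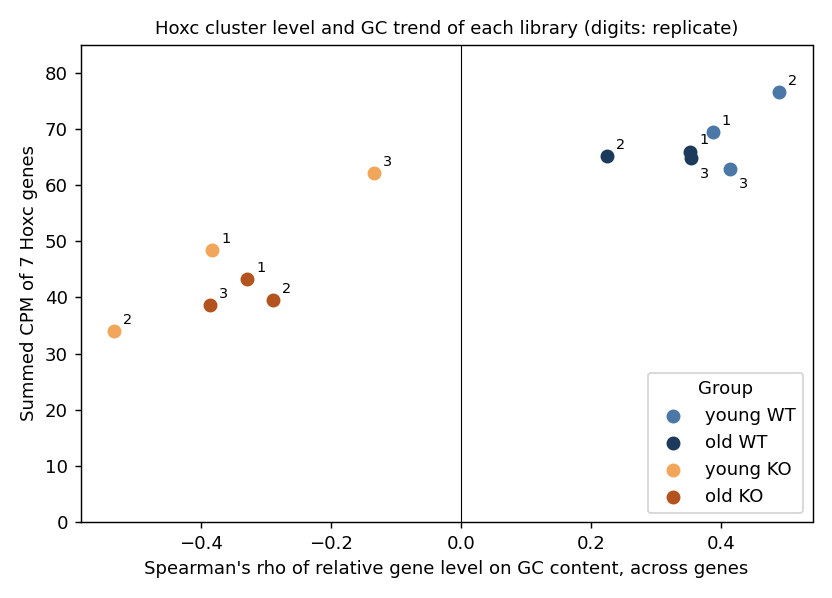
Summed CPM of the 7 Hoxc genes (y axis, from 0) against the Spearman correlation of gene level with GC content across genes (x axis), 1 point per library, coloured by group and labelled by replicate. Wild-type libraries lie at positive and knockout libraries at negative values, and within young knockout the sums of 34.0, 48.4 and 62.1 CPM follow the order of the trend, which the sums of the other 3 groups do not.

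The other Hox clusters were set beside Hoxc under the same fit. Of 9 tested Hoxa genes 1 was called lower in old knockout, Hoxa9 itself, with a log2 fold change of -1.63 ± 0.25 (SE; adjusted p = 0.00235). In young mice Hoxa9 had -0.67 ± 0.24 (SE) and did not pass (adjusted p = 0.0671), nor with GC and length offsets (-0.63, adjusted p = 0.126). The Hoxa median was -0.78 in old mice, with 8 of 9 values negative, and -0.26 in young mice, with 5 of 9 negative and 0 called in edgeR. Hoxa10, a neighbour of Hoxa9 that acts in the proximal hindlimb, had -0.61 in old mice (adjusted p = 0.0534) and -0.26 in young mice (adjusted p = 0.384). Hoxb was represented by 1 tested gene, Hoxb2, and Hoxd by 3, Hoxd4, Hoxd8 and Hoxd9, and none of these 4 passed in either comparison. Hoxd8 had a log2 fold change of 0.84 ± 0.31 (SE; adjusted p = 0.0718) in young knockout, against the sign of the called Hoxc genes, and with GC and length offsets it was 1.21 (adjusted p = 0.0374). Whether Hoxc differed from the other clusters was not tested.

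**Figure D5:**
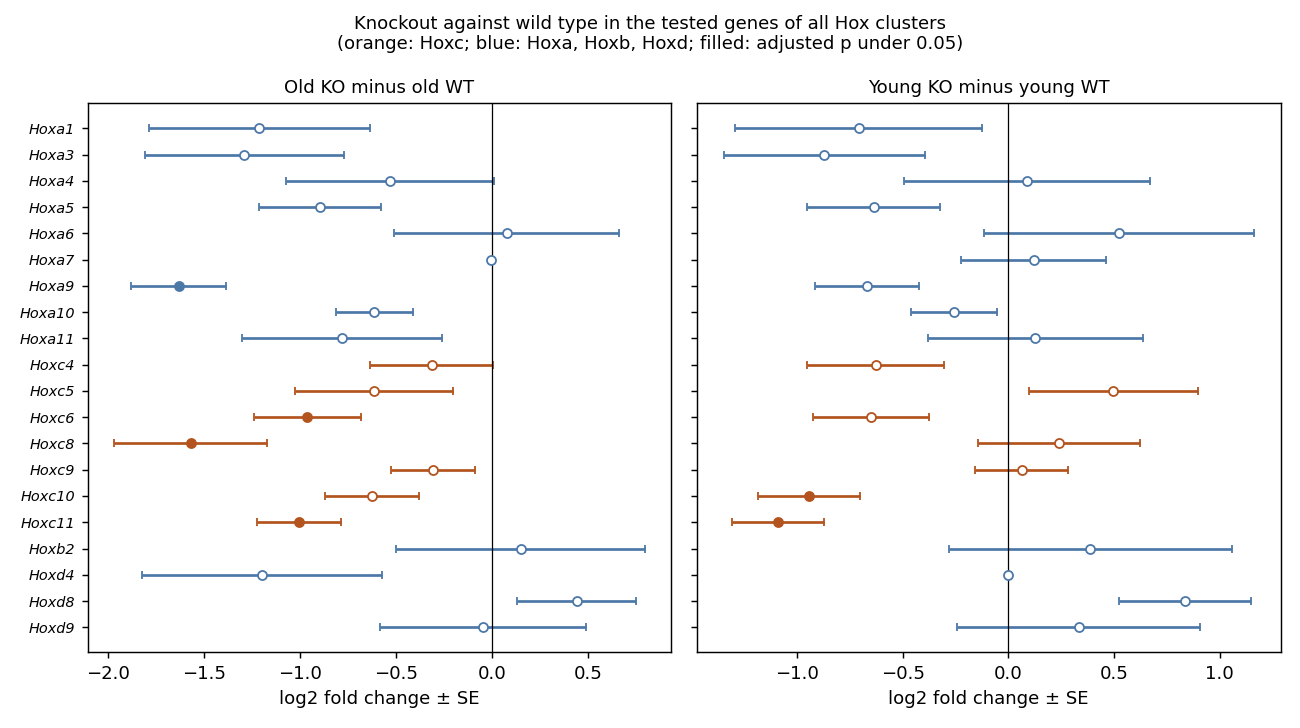
Log2 fold change (x axis) of knockout against wild type in old and young mice for all tested genes of the Hoxa, Hoxb and Hoxd clusters (blue) and the Hoxc genes (orange), with the SE as bars and filled points where the adjusted p was under 0.05. Hoxa9, Hoxc6, Hoxc8 and Hoxc11 are filled in old mice and Hoxc10 and Hoxc11 in young mice. Values within 0.02 of 0 carry no bar, since the SE cannot be had from the test statistic there.

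Genes that flank the Hoxc cluster also differed by genotype. Of 8 tested flanking genes 3 were lower and 1 was higher in old knockout (7.21% and 9.52% of all tested genes), and 4 were lower and 1 was higher in young knockout (10% and 10.9%). Calcoco1, next to the Hoxc13 end and coding for a coactivator and autophagy receptor, had log2 fold changes of -0.91 ± 0.15 in old and -0.80 ± 0.15 in young mice (SE; adjusted p = 0.00311 and 0.00306). Zfp385a, a zinc finger gene beyond the Hoxc4 end, had -1.78 ± 0.28 and -1.74 ± 0.27 (SE; adjusted p = 0.00258 and 0.00127). Itga5, the fibronectin receptor subunit, fell by 0.81 and 0.98 (adjusted p = 0.0321 and 0.0109), and Copz1, a coatomer subunit, fell by 0.88 in young mice (adjusted p = 0.00147). Cbx5, which codes for heterochromatin protein HP1 alpha, was higher by 0.51 and 0.56 (adjusted p = 0.0488 and 0.029). With GC and length offsets Zfp385a passed in both, Calcoco1 in old mice and Copz1 in young mice, and Itga5 and Cbx5 in neither.

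Of 8 tested genes of the Pbx, Meis and Pknox families, whose products bind DNA together with Hox proteins, 0 passed in old mice and 2 were lower in young knockout. Pbx2 fell by 0.55 (adjusted p = 0.016) and Pknox2 by 0.76 (adjusted p = 0.0186), and with GC and length offsets neither passed (adjusted p = 0.386 and 0.103). Tbx4, from the list of limb and muscle identity factors, was lower in old knockout and did not pass in young mice (adjusted p = 0.0768). This gene, which marks hindlimb tissue, stood at 23.5, 23.2, 17.1 and 13.6 CPM on average in young wild type, old wild type, young knockout and old knockout. Its log2 fold change in old mice was -0.77 ± 0.17 (SE; adjusted p = 0.0117), and -0.57 with GC and length offsets (adjusted p = 0.0539). Tbx5, its forelimb counterpart, reached at most 0.497 CPM in any library. Pitx1 and Isl1, hindlimb factors of the same list, were as scarce, at no more than 0.795 and 0.581 CPM. A low level was thus not particular to the forelimb gene.

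Among 28 tested chromatin regulators of Hox clusters, 3 were higher and 4 lower in old knockout, and 4 were higher and 4 lower in young knockout. Of all tested genes 9.52% were higher and 7.21% lower in old and 10.9% and 10% in young mice, so that the list's counts lay near the background. Pcgf2 (Mel18), a subunit of Polycomb repressive complex PRC1, stood at 12.8 ± 1.57 and 16.5 ± 0.202 CPM in young and old wild type and at 5.51 ± 1.68 and 4.62 ± 1.10 CPM in young and old knockout. Its log2 fold changes were -1.79 ± 0.25 in old and -1.21 ± 0.24 in young mice (SE; adjusted p = 0.00162 and 0.0043), and it passed in both with GC and length offsets (adjusted p = 0.00426 and 0.0377). Phf1, a PRC2 accessory subunit, fell by 0.79 in old mice (adjusted p = 0.0192), and Phc1, a PRC1 subunit, fell by 0.69 in young mice (adjusted p = 0.0104). Suz12, a core PRC2 subunit, was higher by 0.52 in old and 0.90 in young mice (adjusted p = 0.0219 and 0.00119). Rnf2, the PRC1 ubiquitin ligase, was higher by 0.61 in old mice (adjusted p = 0.0211), and Kdm6a, a demethylase of the Polycomb mark, by 0.73 in young mice (adjusted p = 0.0146). With the offsets Phf1, Phc1, Rnf2 and Kdm6a did not pass in those comparisons, and Suz12 passed in young mice alone (0.39, adjusted p = 0.0425). Dpy30, a subunit of histone methyltransferase complexes of the Trithorax group, was lower with the offsets in both. Its log2 fold changes with them were -0.62 in old and -1.06 in young mice (adjusted p = 0.034 and 0.00638). Without offsets its level was 24.55 ± 2.08 CPM in old wild type and 20.4 ± 3.53 CPM in old knockout, with overlapping ranges. In young mice it was 21.2 ± 4.40 CPM in wild type and 13.1 ± 1.64 CPM in knockout, without overlap. Dpy30 was named after its values were seen.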

How the data were processed

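The deposited files hold whole-number read counts per gene symbol, not normalized, 1 file per library. Per the submitters' processing notes, TopHat, HTSeq and DESeq2 were used with build mm9. Versions, annotation and strand setting are not given in the sources used here. Per the labels' protocols, libraries were made with a stranded total RNA kit after removal of ribosomal RNA. Counter summary lines, among them reads outside genes (32.2% to 70.8% of unique reads), stayed out of library sizes and tests.

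All 12 libraries were fitted together with edgeR 4.0.16 in R 4.3.3: filterByExpr (13540 genes left), trimmed-mean factors, robust quasi-likelihood fit, 1 mean per group, Benjamini-Hochberg adjustment over all tested genes, threshold 0.05. The SE was taken from the log2 fold change and the root of its F value. Signs are old minus young and knockout minus wild type. DESeq2 1.42.0, limma-voom (limma 3.58.1), other scalings, filters and offsets, and fits without single libraries were alternatives. The code was tested on simulated data.

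The members and the gene lists were chosen with earlier results of these data known. All 7 members are described, and of each other list up to 4 genes past the threshold per comparison, by smallest p, with Hoxa9 and, of genes of mean log2 CPM over 1, the 5 most and 5 least alike in pattern. Lengths, GC content and transcript sequences came from GENCODE M21 (GRCm38), another build than the files', matched by symbol (92.3%). GC content was known for 98.0% of tested genes. Spearman correlations between libraries were 0.949 to 0.990 within groups, and no library repeated another. A gene of the list of limb and muscle identity factors is not reported here.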

Additional observations from a re-analysis of the deposited data

How the results depend on the processing

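Of 24 alternatives for each comparison (23 for the interaction), the members called lower in old knockout numbered 0 to 4 against 3, and in young knockout 0 to 2 against 2. The count in both age comparisons and the interaction was 0 in every alternative. In old mice the count was 0 without the 2 libraries with Y-linked reads, 0 without the 2 libraries with most reads outside genes, and 1 to 4 without 1 library, with 1 without old wild-type replicate 2 or any 1 old knockout replicate. In young mice it was 1 in a fit of only the groups compared, 0 with GC and length offsets, and 1 to 2 without 1 library, with 1 without wild-type or knockout replicate 2. Fewer libraries also lowered the calls over all genes, to 121 without the Y-linked libraries. Hoxc8 passed in 19 of 24 alternatives in old mice (log2 fold change -2.72 to -1.18), Hoxc11 in 21 (-1.23 to -0.68) and Hoxc6 in 14 (-1.19 to -0.78). In young mice Hoxc11 passed in 23 (-1.20 to -0.70) and Hoxc10 in 20 (-1.19 to -0.65). None of these 5 changed sign. Hoxc10 in old mice passed in 4.

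With library size alone the median over all genes was -0.26 in old mice and -0.10 in young mice, the median of the members was -0.88 and -0.71, and of all calls in old mice 83.6% were lower, against 43.1% with trimmed-mean factors and 55.4% with upper-quartile factors. With GC and length offsets the median of the members was -0.57 in old and -0.33 in young mice. In young mice 59.6% of calls were lower with library size alone, against 47.8%.

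Values near 0 that did not pass changed sign. For Hoxc9 in young mice the log2 fold change of 0.06 was -0.023 with limma-voom, -0.025 with library size alone and -0.13 to 0.26 without 1 library. For ageing in wild type Hoxc4 was -0.034 without the 2 libraries with most reads outside genes and -0.084 to 0.15 without 1 library, and Hoxc6 was -0.29 to 0.038. For ageing in knockout Hoxc9 was -0.37 to 0.019, and Hoxc10 was 0.014 with limma-voom and -0.43 to 0.11 without 1 library. Hoxc11 there was 0.22 without the Y-linked libraries, 0.046 without the 2 with most reads outside genes and -0.25 to 0.033 without 1 library. The Hoxc11 interaction was -0.057 with library size alone, -0.066 with GC and length offsets and -0.12 to 0.19 without 1 library. The cause was not tested.

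Replicate numbers did not pair the libraries: the deviations of same-numbered libraries had a median correlation of -0.04 (18 pairs), and 3 of 12 libraries correlated best with their own number. With the replicate number as a block, 2 members passed in old mice, with Hoxc6 at -0.93 (adjusted p = 0.0572), 2 passed in young mice and 0 in the other 3 comparisons.

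Depth limits the members with fewest reads, such as Hoxc8 with 5 to 26 reads per old knockout library.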

Other observations

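Retinoic acid is a known activator of Hox clusters. Of 12 tested genes of retinoid signalling and other Hox inputs, 1 was higher and 1 lower in old knockout, and 2 were lower in young knockout. Over all tested genes 9.52% were higher and 7.21% lower in old knockout and 10% lower in young knockout, so the list's counts lay near the background. Rarb, a retinoic acid receptor gene that retinoic acid itself induces, stood at 6.20 ± 1.67 CPM in old wild type and 13.8 ± 2.13 CPM in old knockout (SD, n = 3; log2 fold change 1.15 ± 0.25 SE, adjusted p = 0.0103 in edgeR). Rara, the receptor expressed most broadly, fell by 0.62 in old and 0.98 in young mice (adjusted p = 0.0374 and 0.00328), and with GC and length offsets passed in neither (adjusted p = 0.244 and 0.0544). Rxra, their dimer partner, fell by 0.36 in young mice (adjusted p = 0.0497), and was 0.01 with the offsets, while in old mice it was 0.47 with them and passed (adjusted p = 0.0237).

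Hoxc members did not all vary alike across the 12 libraries. On the log2 CPM scale Pearson's r was 0.85 for each pair among Hoxc6, Hoxc10 and Hoxc11, and -0.02 for Hoxc5 with Hoxc10. Within groups, after each group's mean was taken off, Hoxc9 went with Hoxc10 (r = 0.79) and Hoxc8 ran opposite to Hoxc11 (r = -0.50). These points share libraries, genotype and the GC trend, so the values are descriptions.

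Of 12016 genes whose mean log2 CPM was over 1, those with the highest Pearson correlation with the mean standardized level of the 7 members over 12 libraries were Psmd11 (0.95), Gpr62 (0.94), Fbrs (0.94), Phrf1 (0.94) and Fbrsl1 (0.93). The lowest were Tmem165 (-0.96), Tmf1 (-0.96), Cmpk1 (-0.96), Gtl3 (-0.95) and Zdhhc6 (-0.95). Both sets are the extremes of 12016 genes over libraries that differ in genotype and GC trend, so the values are descriptions. No link of any of these genes to the Hoxc members was tested. Fbrs, a partner of variant Polycomb complexes, stood at 68.7, 66.6, 38.0 and 29.6 CPM on average in young wild type, old wild type, young knockout and old knockout. After each group's mean was taken off, the highest were Nacad (0.96), Ufsp1 (0.94), Per1 (0.94), a circadian clock gene, Nfatc2 (0.94) and Ppp1r12b (0.94), a different set from the first 5.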
